A study of Mus musculus with 6 samples.

Results

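*Ptn*, *Mdk*, *Ptprz1*, *Sdc2*, *Sdc3*, *Sdc4*, *Ncl* and *Alk* encode pleiotrophin, midkine and the receptors that bind them. They are 8 of the 17418 genes counted in single cells of the mouse cortex at postnatal day 5. They were selected on measured values, because *Ptn* had been lower in *Fmr1*-KO oligodendrocytes and higher in *Fmr1*-KO interneurons than in WT. The values in those 2 subtypes are therefore given as a description without a test, and tests are given for other subtypes. *Ptn* was highest in fibroblasts, astrocytes and pericytes, and outside the 2 subtypes used for the selection none of the members passed the test between genotypes (0 of 40 edgeR tests, where at most 0.0499% of all genes were called in any of these subtypes).

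Cells came from 3 WT mice (FVB.129P2-Pde6b+ Tyrc-ch/AntJ) and 3 *Fmr1*-KO mice (FVB.129P2-Pde6b+ Tyrc-ch Fmr1tm1Cgr/J), so that mice of either genotype carried the same *Pde6b* and *Tyr* alleles. The knockout allele is carried in the germline and is not restricted to a cell type. Mice of both sexes were used. With InDrop, each dissociated cell is caught in a droplet beside a bead whose primers carry a cell barcode, and transcripts are counted by unique molecular identifiers (UMIs). The authors assigned 17280 cells to 18 subtypes and marked another 1113 as doublets, which were left out, and the names of the subtypes below are theirs.

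Pleiotrophin and midkine are the members of a small family of secreted, heparin-binding growth factors. Their main receptor on neural cells is PTPRZ1, a transmembrane tyrosine phosphatase that carries chondroitin sulfate chains and whose activity falls when pleiotrophin binds it. Syndecans are transmembrane proteoglycans that hold such ligands at the cell surface through heparan sulfate, nucleolin is a nucleolar protein that can also bind them at the surface, and ALK is a receptor tyrosine kinase proposed as a further receptor. In the developing cortex pleiotrophin is known as a product of radial glia and astrocytes, where it acts on neurite growth and on cells of the oligodendrocyte lineage.

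Levels are given as UMIs of a gene per 1000000 UMIs of all genes (CPM), after summing the cells of a subtype in each mouse. The UMIs were counted near the 3′ end, and levels are compared between subtypes but not between genes. Total UMIs per mouse, with doublets included, ranged from 8070039 to 20677233, and the median per cell, without doublets, from 1957 to 4908. WT 1, *Fmr1*-KO 1 and *Fmr1*-KO 2 were batch 1 with bead version V2, and WT 2, WT 3 and *Fmr1*-KO 3 were batch 2 with V3.8, so that batch and bead version cannot be told apart. Barcodes recurred between libraries of the same mouse: 4284 cells (24.8%) shared theirs with another library of their mouse, and 94.4% of these 1854 barcodes carried the same subtype in each library. A pair of libraries from the same mouse shared from 33 to 353 barcodes, against 2 to 21 in a pair from different mice of a batch. The genotype fits and the level of each member in its highest tested subtype were therefore also computed with 1 cell per barcode and mouse (14850 cells). Shares of cells with a UMI, marker sums, values by library and the other descriptions were not recomputed in this way. Over all cells, *Fmr1* had 68.4, 74.1 and 72.5 CPM in WT 1, WT 2 and WT 3 and, as the labels require, far less in the *Fmr1*-KO mice, with 17.2, 19.9 and 16.1 CPM (log2 fold change -2.06, SE 0.11, edgeR FDR = 6.8e-04).

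*Ptn* lies at chr6:36714929-36810220 of mm10, on the minus strand. In the main astrocyte subtype, Astrocytes_1, it had 7434, 8631 and 9406 CPM in WT 1, WT 2 and WT 3 and 9295, 7866 and 8986 in *Fmr1*-KO 1, *Fmr1*-KO 2 and *Fmr1*-KO 3. These 6371 cells held 82.1% of all *Ptn* UMIs (73.9% to 86.0% by mouse) while they were on average 35.8% of the cells of a mouse. A *Ptn* UMI was found in 99.6% of them. Fibroblasts reached 9334 CPM in WT 2, 13578 in WT 3 and 7108 in *Fmr1*-KO 2, the mice with at least 10 such cells, and were above Astrocytes_1 in 2 of the 3. The difference between fibroblasts and Astrocytes_1 was smaller than its SD over the mice.

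Below them the order of the mean levels was Astrocytes_2 with 5531 ± 1033 CPM (SD, n = 6 mice), pericytes with 4306 ± 440 (SD, n = 6) and OPC_1, the main group of oligodendrocyte progenitors, with 2323 ± 377 (SD, n = 6). Astrocytes_1 exceeded Astrocytes_2, and pericytes exceeded OPC_1, in each of the 6 mice and by more than the SD of the difference. Astrocytes_2 and pericytes did not differ beyond their spread (5 of 6 mice higher in Astrocytes_2). Neurons were lower, with 913 ± 185 CPM (SD, n = 6) in excitatory neurons, 554 ± 144 in ganglionic eminence precursors and 267 ± 79.1 in interneurons. Interneurons, oligodendrocytes and SVZ cells (migrating neurons of the subventricular zone) were neighbours in the order that did not differ beyond their spread.

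Of the 15 subtypes with at least 10 cells in 3 or more mice, microglia had the lowest mean of *Ptn*, with 79.4 to 176 CPM, and did not differ from Cajal-Retzius cells (CR) beyond the spread. To set the levels against RNA of astrocytes, *Ptn* was divided by the summed UMIs of 15 astrocyte marker genes. Astrocytes_1 had 19.8 to 20.7 *Ptn* UMIs per 100 marker UMIs in WT and 19.7 to 21.3 in *Fmr1*-KO mice. Endothelial cells, with 573 ± 122 CPM of *Ptn* (SD, n = 6), had the same ratio in 5 of the 6 mice (19.9 to 21.1) and 12 in WT 3. Ganglionic precursors had 23.0 to 25.3 in WT and 19.96 to 20.97 in *Fmr1*-KO mice, so that genotypes did not overlap in this ratio. Pericytes had 55.9 to 83.8 and OPC_1 72.6 to 100.06 *Ptn* UMIs per 100 marker UMIs, above astrocytes. Microglia had 2.82 to 6.37, below astrocytes, and the list holds *Apoe*, which microglia also express. Whether free RNA of astrocytes reached these droplets was not tested.

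**Figure D1:**
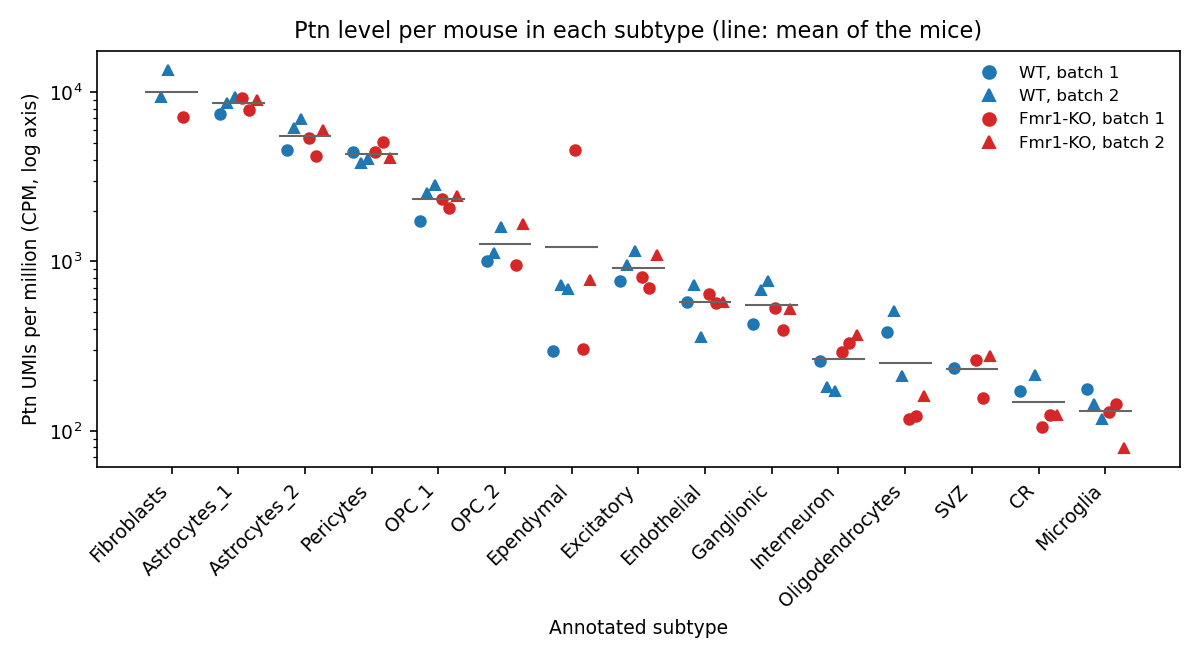
*Ptn* in CPM on a log axis for each mouse with at least 10 cells of a subtype, with the subtypes in the order of their means (lines). Blue points are WT and red points *Fmr1*-KO mice, circles batch 1 and triangles batch 2. Levels fall from about 10007 CPM in fibroblasts to 131 in microglia, the *Fmr1*-KO mice lie below the WT mice in oligodendrocytes and above them in interneurons, and 1 *Fmr1*-KO mouse stands apart in ependymal cells.

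Ependymal cells line the ventricles, and in this subtype *Fmr1*-KO 1 stood apart with 4544 CPM of *Ptn*, against 297 to 781 in the other mice. It contributed 12 ependymal cells, and 1 of them held 133 of its 271 *Ptn* UMIs (49.1%). *Sdc3* was also high in these 12 cells, at 218 CPM against 11.2 to 24.5. The astrocyte marker sum in ependymal cells was 7863 CPM in this mouse and 5448 to 6229 in the other mice. The astrocyte markers *Slc1a3* (939 CPM) and *Aqp4* (235) lay within the range of the other mice (685 to 1185 and 75.9 to 286). Markers of OPC summed to 503 CPM in this mouse and 125 to 336 in the others. Sums for interneurons and dividing cells were also highest in this mouse, and those for fibroblasts and myelinating oligodendrocytes lowest. Their part in the *Ptn* value was not tested. Ependymal cells had fewer than 100 WT cells and were not tested between genotypes.

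Among the genes whose pattern over the 10 tested subtypes was most like that of *Ptn* were *Atp1b2* (Pearson r = 0.97 of log2 levels, n = 10 subtypes), *Prrx1* (0.95), *Plce1* (0.94) and *Gpc6* (0.93), of 8272 genes compared. *Atp1b2* encodes a subunit of the sodium pump, and *Prrx1* a transcription factor known from mesenchymal cells. *Atp1b2* and *Gpc6* peaked in Astrocytes_1, and *Prrx1* and *Plce1* in pericytes. The subtypes share libraries and were clustered on these genes, so that these values only describe the pattern.

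*Mdk*, the other ligand (chr2:91929805-91932297, minus strand), was distributed differently. In fibroblasts it had 699 ± 152 CPM (SD, n = 3 mice) and in SVZ cells 689 ± 283 (SD, n = 4). The order of these subtypes is not settled: only 1 mouse, *Fmr1*-KO 2, had at least 10 cells of both, and its SVZ cells were higher. Ganglionic eminence precursors followed, with 470, 416 and 341 CPM in the WT and 554, 435 and 385 in the *Fmr1*-KO mice, and exceeded Astrocytes_2 (373 ± 71.6) in 5 of 6 mice and beyond the spread. Astrocytes_1 had 261 ± 35.5 CPM (SD, n = 6). In pericytes, where *Ptn* was high, *Mdk* had 59.1 ± 23.4 CPM, 8.45% of its highest mean, whereas *Ptn* there was at 43.0% of its highest mean. In excitatory neurons, endothelial cells and microglia the means of *Mdk* were 17.8, 15.6 and 11.8 CPM, and these 3 did not differ beyond their spread. The closest patterns were those of *Nfia* (r = 0.98), *Ift74* (0.96) and *Elp4* (0.94), over the same 10 subtypes.

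*Ptprz1*, the phosphatase receptor (chr6:22875502-23052916, plus strand), was highest in the same astrocytes as *Ptn*. Astrocytes_1 had 2816 ± 964 CPM (SD, n = 6), Astrocytes_2 had 1817 ± 430, OPC_1 had 1434 ± 252 and OPC_2 had 597 ± 234 (SD, n = 5). Each of these exceeded the next in every mouse compared and by more than the SD of the difference. In contrast to *Ptn*, it was at 55.2 ± 47.3 CPM in pericytes and at 21.1 ± 23.5 (SD, n = 3) in fibroblasts, 1.96% and 0.750% of its highest mean. Oligodendrocytes had 453 ± 133 CPM, and ependymal cells 433 ± 177. *Npas3* (r = 0.98), *Gpm6b* (0.96) and *Gareml* (0.96) were most alike in pattern.

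**Figure D2:**
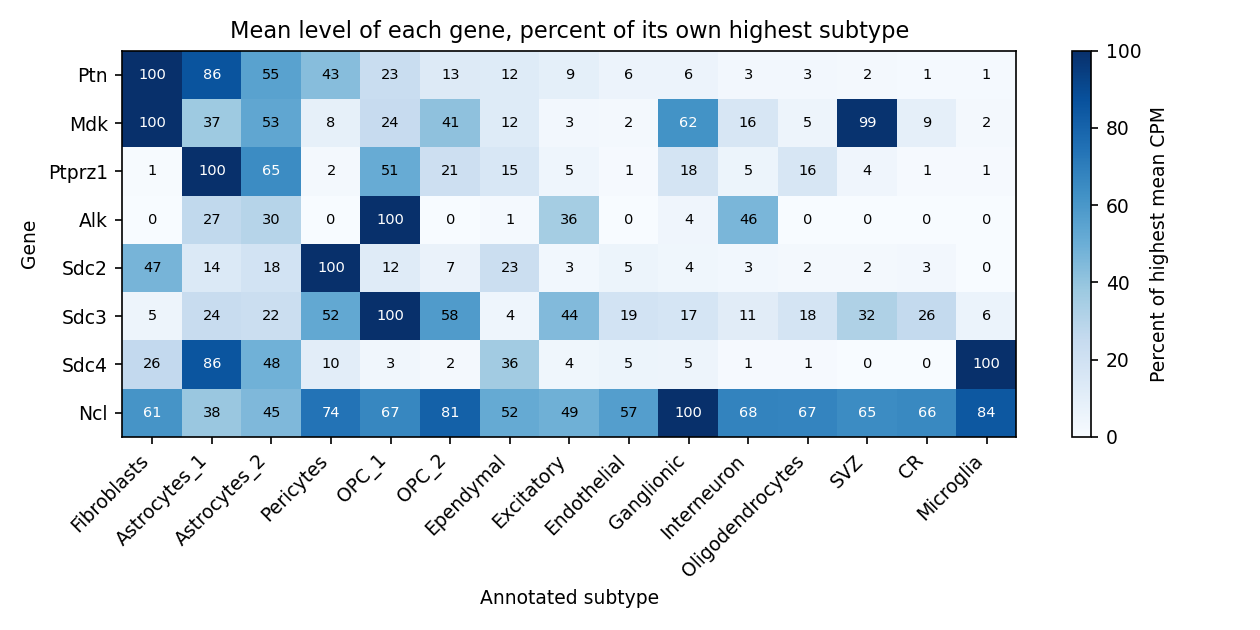
Mean level of each gene in each subtype as a percent of the highest mean of the same gene (number and shade), over mice with at least 10 cells and in the subtype order of the plot of *Ptn* by subtype. Rows are genes and columns subtypes, and rows cannot be compared in absolute level. *Ptn* and *Mdk* have their highest mean in fibroblasts, with *Mdk* nearly as high in SVZ cells (98.5%). *Ptprz1* peaks in Astrocytes_1, *Alk* and *Sdc3* in OPC_1, *Sdc2* in pericytes, *Sdc4* in microglia and *Ncl* in ganglionic precursors. The row of *Ncl* varies least.

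The 3 syndecans had their highest levels in different subtypes. *Sdc2* (chr15:32920723-33034935, plus strand) was highest in pericytes, with 565, 432 and 707 CPM in the WT and 702, 567 and 648 in the *Fmr1*-KO mice, followed by fibroblasts with 284 ± 89.4 (SD, n = 3). Pericytes exceeded fibroblasts in 3 of 3 mice and beyond the spread, and all other subtypes had means of at most 136 CPM. *Plce1* (r = 0.96), *Prrx1* (0.95) and *Pkd2* (0.94) had the nearest pattern.

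*Sdc3* (chr4:130792537-130826319, plus strand), the syndecan of neural tissue, was highest in OPC_1. The WT mice had 1350, 1011 and 1128 CPM and the *Fmr1*-KO mice 1361, 1196 and 997, above OPC_2 in 5 of 5 mice and beyond the spread. OPC_2 (682 ± 188, SD, n = 5) and pericytes (615 ± 104, SD, n = 6) did not differ beyond theirs. Excitatory neurons had 522 ± 76.2 CPM and interneurons 133 ± 36.5 (SD, n = 6). Its nearest patterns were weaker than those of other members: *Mmp15* (r = 0.88), *Gfra2* (0.85) and *Marveld1* (0.83).

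*Sdc4* (chr2:164424247-164443887, minus strand) had 162 ± 39.6 CPM in microglia and 139 ± 37.0 in Astrocytes_1 (SD, n = 6), and these did not differ beyond their spread. In the subtype the authors named Ms4a7_high, a single mouse had at least 10 cells (WT 3), with 339 CPM. In oligodendrocytes, OPC_1 and interneurons the means were 1.83, 5.59 and 1.43 CPM. *Cst3* (r = 0.95), *Itgb5* (0.94) and *Apoe* (0.94), genes of microglia and astrocytes, were closest to it.

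*Ncl* (chr1:86344719-86359400, minus strand) was present in each of the 15 subtypes compared. It was highest in ganglionic precursors, with 675 ± 63.7 CPM (SD, n = 6), and lowest in Astrocytes_1 with 259 ± 22.5, and 11 of 14 neighbours in the order did not differ beyond their spread. Its nearest patterns were those of *Sf3b1* (r = 0.97), *Utp3* (0.94) and *Gabpb1* (0.93), of which *Sf3b1* encodes a splicing factor and *Utp3* a factor of ribosome assembly. *Alk* (chr17:71868972-72604627, minus strand) had 320 UMIs in all 17280 cells. OPC_1 held 103 of them, at 17.2 ± 6.59 CPM (SD, n = 6), and exceeded interneurons (7.98 ± 7.25) in 5 of 6 mice. No *Alk* UMI was found in 1439 endothelial cells, 890 pericytes, 810 microglia or 354 oligodendrocytes, which allows shares of cells with a UMI of up to 0.208%, 0.337%, 0.370% and 0.847%. These limits cover counting error only.

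In oligodendrocytes, the subtype with the largest difference used for the selection, *Ptn* had 384, 512 and 212 CPM in WT 1, WT 2 and WT 3. It had 117, 122 and 161 CPM in *Fmr1*-KO 1, *Fmr1*-KO 2 and *Fmr1*-KO 3. These values rest on 37, 176 and 82 *Ptn* UMIs in 26, 98 and 60 WT cells and on 16, 19 and 89 UMIs in 24, 38 and 108 *Fmr1*-KO cells. Each *Fmr1*-KO mouse was below each WT mouse, and the fitted log2 difference was -1.33 (SE 0.25). Within batch 1 the log2 ratio was -1.68 and within batch 2 it was -1.16. Of all genes tested in oligodendrocytes edgeR called 0.0423%, and genotypes did not overlap for 9.04%, but since this contrast chose the members nothing is read from these shares.

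The *Fmr1*-KO oligodendrocytes lay in the range of microglia (79.4 to 176 CPM). A *Ptn* UMI was found in 56.0% of 184 WT and 34.1% of 170 *Fmr1*-KO oligodendrocytes, at medians of 3360.5 and 3113.5 UMIs per cell. In microglia the shares were 26.7% and 22.6%, at medians of 2700 and 2577 UMIs. With each cell thinned to 700 UMIs (1 WT oligodendrocyte and 4 WT microglia were shallower and left out), the expected shares were 25.3% and 14.2% in oligodendrocytes and 10.2% and 8.68% in microglia. By mouse, the thinned share in *Fmr1*-KO oligodendrocytes was 19.5%, 9.83% and 14.6%, against 9.25%, 12.8% and 5.84% in the microglia of the same mice, so that *Fmr1*-KO 2 alone was lower in oligodendrocytes. When the thinned UMIs were summed, the log2 difference in oligodendrocytes was -0.79. With 1 cell per barcode and mouse it was -1.35.

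The libraries of a mouse spread widely in these few cells. The 8 WT libraries had from 160 to 699 CPM of *Ptn* in oligodendrocytes and the 9 *Fmr1*-KO libraries from 27.2 to 424, and so overlapped. The cells carried oligodendrocyte markers in each mouse, with *Mbp* at 3328 to 11636 CPM and *Gpr17*, a marker of newly formed oligodendrocytes, at 3248 to 4911. The summed astrocyte markers were 565 to 1309 CPM in WT and 428 to 673 in *Fmr1*-KO oligodendrocytes, with 11 of 15 genes lower on average in *Fmr1*-KO mice and 1 at 0. *Aqp4*, which defines astrocytes, was at 0 to 17.5 CPM and overlapped between genotypes, as did *Slc1a3*, *Apoe* and *Clu* of this list. *Slc1a2* was lower without overlap, with 114, 137 and 56.8 CPM in WT and 36.6, 51.4 and 23.6 in *Fmr1*-KO mice. So was *Aldoc*, with 62.3, 98.9 and 56.8 against 43.9, 32.2 and 32.7 CPM. Per 100 UMIs of the astrocyte markers, the WT mice had 38.5, 39.1 and 37.4 *Ptn* UMIs. The *Fmr1*-KO mice had 17.4, 24.1 and 37.7, so that *Fmr1*-KO 3 was level with the WT mice in this ratio. OPC markers summed to 5184 to 6126 CPM in WT and 4695 to 5691 in *Fmr1*-KO mice, and markers of myelinating cells to 14751 to 21211 and 8076 to 18915. Of the OPC markers 5 of 9, and of the myelinating markers 9 of 10, were lower on average in *Fmr1*-KO mice. Their part in the difference of *Ptn* was not tested.

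Of the other members in oligodendrocytes, *Ptprz1* had 592, 428 and 408 CPM in the WT and 636, 322 and 330 in the *Fmr1*-KO mice. *Sdc3* had 426, 195 and 101 CPM in the WT and 176, 238 and 120 in the *Fmr1*-KO mice. *Ncl* had 426, 340 and 390 against 768, 392 and 410 CPM. Genotypes overlapped for all 3, and *Mdk*, *Sdc2*, *Sdc4* and *Alk* were under the filter of a UMI in 15% of the cells.

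In interneurons *Ptn* had 258, 180 and 172 CPM in the WT mice, and the *Fmr1*-KO mice had 291, 331 and 368 CPM. The numbers of *Ptn* UMIs were 228, 29 and 88 in WT and 213, 173 and 173 in *Fmr1*-KO interneurons. Each *Fmr1*-KO mouse was above each WT mouse, by a fitted log2 difference of 0.61 (SE 0.17). The log2 ratio was 0.27 within batch 1 and 1.06 within batch 2. It rested in part on single mice: without *Fmr1*-KO 3 the difference was 0.29, and without WT 1 it was 1.07. With cells thinned to 700 UMIs it was 0.37. In this subtype edgeR called 0% of all genes, and genotypes did not overlap for 6.86%, and again nothing is read from these shares.

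A *Ptn* UMI was found in 34.6% of 532 WT and 43.5% of 577 *Fmr1*-KO interneurons, at medians of 2331 and 2649 UMIs, or in 14.1% and 19.0% after thinning. The summed astrocyte markers were 711 to 1145 CPM in WT and 587 to 892 in *Fmr1*-KO interneurons, with 9 of 15 genes lower on average in *Fmr1*-KO mice. Of these genes *Apoe* was higher without overlap, with 83.7, 99.5 and 70.5 CPM in WT and 175, 153 and 125 CPM in *Fmr1*-KO mice. Per 100 UMIs of the astrocyte markers, the WT mice had 36.2, 15.8 and 22.1 *Ptn* UMIs. The *Fmr1*-KO mice had 32.6, 40.5 and 62.7, so that genotypes overlapped in this ratio. Interneuron markers summed to 3521 to 4105 CPM in WT and 3235 to 4216 in *Fmr1*-KO mice. Markers of excitatory neurons summed to 943 to 1313 CPM in WT and 563 to 912 in *Fmr1*-KO mice and did not overlap. Markers of dividing cells, which are common in ganglionic precursors, were at 176 to 311 CPM in WT and 272 to 407 in *Fmr1*-KO mice. Their part in the difference was not tested.

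*Sdc3* moved the other way in interneurons, with 141, 174 and 165 CPM in the WT and 77.8, 136 and 104 in the *Fmr1*-KO mice. The *Fmr1*-KO mice were below the WT mice without overlap, with a fitted log2 difference of -0.54 (SE 0.21). *Mdk*, *Ptprz1* and *Ncl* overlapped between genotypes there.

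**Figure D3:**
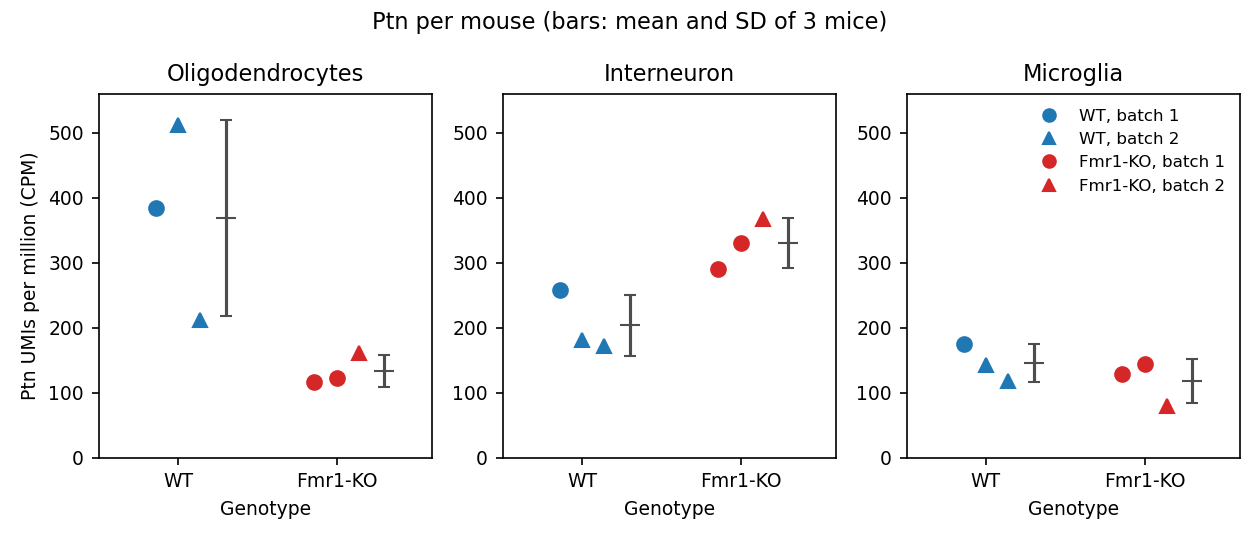
*Ptn* in CPM for each mouse by genotype in oligodendrocytes, interneurons and microglia, with the mean and SD of 3 mice in grey. Blue is WT and red *Fmr1*-KO, circles are batch 1 and triangles batch 2. The means are 369 and 134 CPM in WT and *Fmr1*-KO oligodendrocytes, 204 and 330 in interneurons and 145 and 117 in microglia.

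Whether the members differed between genotypes elsewhere was tested in the 8 subtypes with at least 100 cells per genotype that had no part in the selection. In these, 40 combinations of a member and a subtype passed the filter of a UMI in 15% of the cells, with mice as replicates and batch as a covariate. None was called at FDR under 0.01 and a change of at least 15% (edgeR, 0 of 40), 5 had an unadjusted p under 0.05, and the lowest FDR was 0.35. Of these 5, 2 were in endothelial cells. Among all genes tested, an unadjusted edgeR p under 0.05 was reached by 11.0% in endothelial cells and by 3.29% to 6.31% in the other subtypes. DESeq2 called 0 of the 40, with 0 at an unadjusted p under 0.05. Among all genes edgeR called 0.0208% in Astrocytes_1, 0.0499% in ganglionic precursors and 0.0245% in OPC_1, and 0% in Astrocytes_2, endothelial cells, excitatory neurons, microglia and pericytes.

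*Ptn* in Astrocytes_1 was at 8490 ± 994 CPM in WT and 8716 ± 752 in *Fmr1*-KO mice (SD, n = 3 each), a log2 difference of 0.11 (SE 0.12, edgeR FDR = 0.94). An interval of 2 SE to either side ran from -0.13 to 0.36. In Astrocytes_2 the log2 difference was -0.044 (SE 0.15, edgeR FDR = 1.00), in pericytes 0.076 (SE 0.12, FDR = 1.00) and in OPC_1 0.12 (SE 0.14, FDR = 0.95). In excitatory neurons it was 0.018 (SE 0.12, edgeR FDR = 1.00), in endothelial cells 0.16 (SE 0.20, FDR = 0.82) and in ganglionic precursors -0.18 (SE 0.15, FDR = 0.91). In all 7 of these subtypes the interval of 2 SE included 0, and the mice of the genotypes overlapped. Microglia had 176, 143 and 118 CPM in WT and 129, 144 and 79.4 in *Fmr1*-KO mice, with a log2 difference of -0.53 (SE 0.24, edgeR FDR = 1.00).

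The remaining 4 of the 5 values under an unadjusted p of 0.05 belonged to receptors. *Sdc3* in endothelial cells had 312, 193 and 179 CPM in the WT and 252, 244 and 128 in the *Fmr1*-KO mice (log2 difference -0.38, SE 0.15, edgeR FDR = 0.37). *Sdc3* in ganglionic precursors had 181, 284 and 250 against 146, 148 and 183 CPM (log2 -0.42, SE 0.18, edgeR FDR = 0.77). *Ncl* in endothelial cells had 384, 333 and 296 against 325, 408 and 550 CPM (log2 0.49, SE 0.19, edgeR FDR = 0.35). *Sdc2* in Astrocytes_2 had 56.1, 107 and 140 against 114, 111 and 138 CPM (log2 0.53, SE 0.24, edgeR FDR = 0.99). All 4 overlapped between genotypes, and none passed the adjusted threshold. Within batch 1 and batch 2 the log2 ratio of *Ncl* in endothelial cells was -0.070 and 0.80, and that of *Sdc2* in Astrocytes_2 was 1.00 and 0.15, whereas *Sdc3* was below 0 in either batch in both subtypes.

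Mice of the genotypes did not overlap in 2 of the 40 combinations (5%). *Mdk* in OPC_1 had 177.5, 179 and 184 CPM in the WT and 177.3, 143 and 158 in the *Fmr1*-KO mice, a log2 difference of -0.16 (SE 0.12, edgeR FDR = 0.95). *Ncl* in pericytes had 462, 458 and 457 CPM in the WT and 521, 550 and 551 in the *Fmr1*-KO mice, a log2 difference of 0.24 (SE 0.15, edgeR FDR = 1.00). Over all genes tested the share without overlap was 6.21% in Astrocytes_1, 7.15% in Astrocytes_2, 8.19% in endothelial cells, 4.36% in excitatory neurons, 7.96% in ganglionic precursors, 6.85% in microglia, 6.77% in OPC_1 and 6.62% in pericytes. The share of the members was thus close to that of all genes.

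*Sdc3* was below 0 in 7 of the 8 subtypes (log2 from -0.60 to 0.11) and *Ncl* above 0 in 7 of 8 (-0.076 to 0.49), but the subtypes come from the same 6 mice and are not independent. *Ptprz1* was above 0 in 4 of 5 subtypes, *Sdc4* below 0 in 3 of 3, *Sdc2* above 0 in 3 of 4 and *Mdk* above 0 in 2 of 4. The median log2 difference of the members tested was largest in size in microglia (-0.37, 4 members) and endothelial cells (0.16, 3 members), beside medians of all genes within 0.01 of 0 in each subtype.

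**Figure D4:**
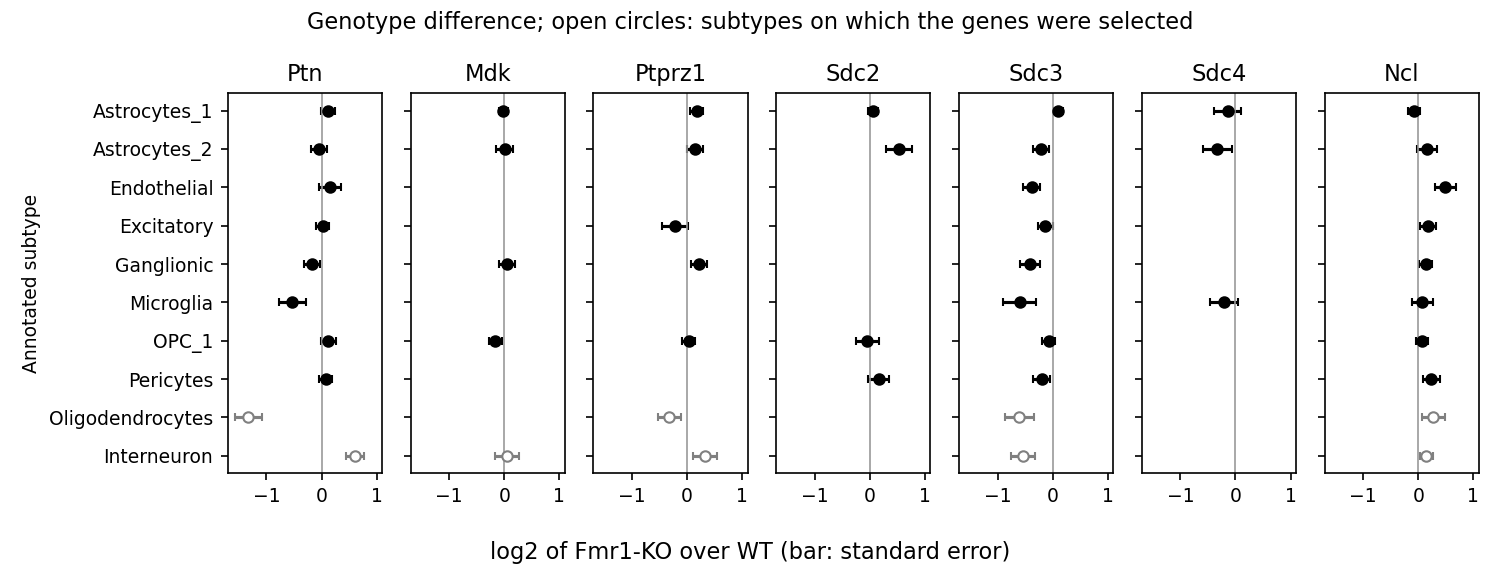
Fitted log2 of *Fmr1*-KO over WT with its standard error for each member and subtype that passed the filter, 1 panel per gene, with *Alk* in none. Filled circles are the 8 subtypes with a test and open circles the 2 subtypes used for the selection. Filled circles lie between -0.60 and 0.53, and the open circles of *Ptn* at -1.33 and 0.61.

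Below the filter, values of few UMIs separated the genotypes in 3 of the 21 combinations of a member and a subtype with a UMI, which were not tested. Of all genes with a UMI under the filter in these subtypes, 6.75% were separated. This share includes genes with too few UMIs to separate the genotypes at all, so that the members cannot be set against it directly. *Alk* in OPC_1 had 8, 17 and 18 UMIs in the WT and 20, 16 and 24 in the *Fmr1*-KO mice, or 7.98 to 16.2 and 17.6 to 28.1 CPM. *Sdc4* in endothelial cells had 3, 9 and 32 UMIs in WT and 1, 4 and 10 in *Fmr1*-KO mice, or 9.01 to 15.5 and 1.97 to 5.68 CPM. *Sdc4* in OPC_1 had 4, 21 and 5 against 1, 1 and 4 UMIs.

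Several members followed the batch. *Ptprz1* in Astrocytes_1 had 3135, 4264 and 3487 CPM in WT 1, *Fmr1*-KO 1 and *Fmr1*-KO 2, the mice of batch 1, and 1909, 2087 and 2016 in WT 2, WT 3 and *Fmr1*-KO 3. Within batches its log2 ratio between genotypes was 0.31 and 0.013. Every mouse of batch 1 was also above every mouse of batch 2 for *Ptprz1* in Astrocytes_2, excitatory neurons and OPC_1, and for *Sdc3* in Astrocytes_1, endothelial cells, excitatory neurons and OPC_1. In ganglionic precursors *Sdc3* went the other way, with 146 to 181 CPM in batch 1 and 183 to 284 in batch 2. *Ptn* was lower in batch 1 in Astrocytes_2, excitatory neurons and OPC_1, and higher in pericytes. In all, batches stood apart in 19 of 49 combinations of a member and a subtype (38.8%), beside 36.5% over all genes tested.

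Other genes of the pathway were read from the same fits in 6 lists. None was called in the 8 subtypes (edgeR, 0 of 305 tests, 19 at an unadjusted p under 0.05; DESeq2 0, with 10). Of the 19 from edgeR, 6 were in endothelial cells, where 11.0% of all genes tested had such a p, against 3.29% to 6.31% in the other subtypes. The tests comprised 68 of other receptors and co-receptors, 19 of other ligands of the receptors, 28 of matrix proteoglycans, 99 of substrates and signalling of PTPRZ1, 34 of syndecan adaptors and 57 of enzymes of chondroitin and heparan sulfate synthesis. Genotypes did not overlap in 5 of them with higher (1.64%) and in 13 with lower values (4.26%) in *Fmr1*-KO mice, beside 2.92% and 3.86% of all tests in these subtypes.

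An unadjusted p under 0.01 was reached by 3 genes, all in endothelial cells, where 11.0% of all genes tested had an unadjusted p under 0.05, against 3.29% to 6.31% in the other 7 subtypes. *Itga6*, the integrin subunit that binds laminin, had 215 ± 101 CPM in WT and 151 ± 85.3 in *Fmr1*-KO mice (SD, n = 3; log2 -0.87, SE 0.21, edgeR FDR = 0.19). *Bgn*, which encodes biglycan, had 266 ± 18.5 and 366 ± 59.6 CPM (SD, n = 3; log2 0.59, SE 0.16, edgeR FDR = 0.23), and its log2 difference was 0.26 without *Fmr1*-KO 3. *Ncan*, which encodes neurocan, had 117 ± 13.2 and 80.6 ± 43.6 CPM (SD, n = 3; log2 -0.88, SE 0.28, edgeR FDR = 0.28). Its log2 ratio was -0.032 within batch 1 and -1.56 within batch 2, and the fitted difference was -0.099 without *Fmr1*-KO 3 and -1.44 without WT 1.

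In Astrocytes_1, the tested subtype with most *Ptn*, the matrix proteoglycans *Ncan* (6883 ± 1101 CPM, SD, n = 6) and *Bcan* (2868 ± 213), which encode chondroitin sulfate proteoglycans of the brain matrix, were at their highest over the tested subtypes. So was *Tnc* (1518 ± 392), a matrix glycoprotein that binds PTPRZ1, whereas *Agrn*, which encodes the heparan sulfate proteoglycan agrin, had 311 ± 26.9 CPM there and 871 ± 49.7 in pericytes. Of the receptors, *Ptprf* had 473 ± 63.9 CPM and *Lrp1*, an endocytic receptor, 440 ± 65.6, with the highest *Lrp1* in OPC_1 (762 ± 191). *Ctnnb1*, which encodes the PTPRZ1 substrate beta-catenin, had 528 ± 41.5 CPM and *Npm1* 314 ± 59.7, and these peaked in endothelial cells (1378 ± 125) and ganglionic precursors (948 ± 106). The adaptors *Ezr* and *Sdcbp*, which encodes syntenin, had 460 ± 41.4 and 166 ± 15.7 CPM. The synthesis enzymes *Chsy1* and *Ndst1*, which extend chondroitin sulfate and modify heparan sulfate, had 143 ± 19.7 and 107 ± 23.2.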

How the data were processed

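UMI counts of single cortical cells (InDrop, 3 mice per genotype) were analysed as deposited. The authors aligned reads to mm10 with TopHat2 2.0.14, counted UMIs per RefSeq gene with ESAT (multiply mapped reads ignored), and deposited the counts without normalization. Subtypes are those of the authors. Oligodendrocytes numbered 24 to 108 per mouse, which limits their precision, and separate animals are the replicates.

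UMIs were summed per mouse and subtype (at least 10 cells per mouse and 100 per genotype for tests) and fitted with edgeR 4.0.16 (R 4.3.3): quasi-likelihood test, TMM, batch as covariate, genes detected in 15% or more of the cells, Benjamini-Hochberg over all genes of the subtype, called at FDR under 0.01 and a change of at least 15%. The fit was also run on simulated counts with no batch effect and the same variability between mice for all genes. That run does not show how well small differences are found in these mice. Within-batch ratios used a pseudocount of 0.5 CPM. SE is the size of the log2 difference divided by the root of F. Likeness used Pearson's r of log2(CPM + 1), for genes with at least 50 CPM in a tested subtype.

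Members, lists, the rule for named genes and tests were chosen with earlier results of these data known. Named were the members, the nearest 5 genes to *Ptn* (1 of them is not reported here) and 3 to other members with over 1000 UMIs, pathway genes with an unadjusted p under 0.01 outside the 2 subtypes of the selection, the 2 highest genes of each pathway list in Astrocytes_1, and *Fmr1*. As alternatives the batch term was dropped or exchanged for the replicate number as block, and TMM was omitted. Others were DESeq2 1.42.0, filterByExpr, no filter, an FDR under 0.05 alone, cells thinned to 700 UMIs, levels as means over cells, each mouse left out and, added after seeing the data, 1 cell per barcode and mouse. Gene positions are from GENCODE vM21 (mm10). Of the pathway lists, 2 genes had no row in the table used here.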

Additional observations from a re-analysis of the deposited data

Results flagged for a closer look

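*Ptn* was flagged because every *Fmr1*-KO mouse was lower than every WT mouse in oligodendrocytes (log2 difference -1.33) and higher in interneurons (0.61). The difference between the 2 subtypes was not tested, since these values chose the members. Cells that the authors marked as doublets were outside the comparisons and held *Ptn* at a mean of 5177 CPM over the 6 mice (SD 1275, 2793 to 6194), above the level of microglia in each mouse.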

How the results depend on the processing

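The count of members called in the 8 subtypes outside the selection was 0 under every alternative, with at most 8 tests at an unadjusted p under 0.05 (no filter on low counts), and 0 to 0 with a mouse left out. Of other pathway genes 0 were called (0 to 0 with a mouse left out), except 1 of 719 tests without a filter on low counts, *Cspg5* in pericytes (log2 -1.49, edgeR FDR = 0.0071). In oligodendrocytes the log2 difference of *Ptn* was -0.79 with cells thinned to 700 UMIs and -1.67 to -0.96 with a mouse left out, and in interneurons 0.29 to 1.07 with a mouse left out. The cause of these shifts was not tested. Each of the 8 members had its highest tested subtype in the same place (8 to 8 with a mouse left out), except *Sdc4*, which was highest in Astrocytes_1 in place of microglia when levels were means over cells or cells were thinned (7 of 8 members).

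The deviations of WT 2 and *Fmr1*-KO 2, which are of different batches, had a median correlation of -0.28 over 10 subtypes. Numbers 1 and 3, whose mice share a batch, had 0.45 and 0.47. In Astrocytes_1, mice of unlike number within a batch also correlated (0.61 for WT 1 with *Fmr1*-KO 2, 0.67 for WT 2 with *Fmr1*-KO 3). These correlations followed the batch and cannot show whether the replicate numbers pair the mice. With the replicate block in place of the batch term 0 members were called, and *Ptn* was at -1.23 in oligodendrocytes and 0.67 in interneurons. Small differences of *Ptn*, none of them called, changed sign. In excitatory neurons *Ptn* was at -0.11 without a batch term, -0.11 with the replicate block, -0.0011 with filterByExpr, -0.014 without a filter and -0.046 thinned. In OPC_1 it was at -0.023 without a batch term and -0.0014 with the block. Thinned, it was at 0.073 in Astrocytes_2, 0.094 in ganglionic precursors and -0.065 in pericytes. With a mouse left out *Ptn* ranged from -0.16 to 0.070 in Astrocytes_2, -0.056 to 0.39 in endothelial cells, -0.044 to 0.070 in excitatory neurons, -0.45 to 0.10 in ganglionic precursors and -0.11 to 0.35 in OPC_1. With 1 cell per barcode and mouse 0 members and 0 other pathway genes were called. Keeping doublets within their subtype was not run, since doublets carry no subtype name.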
